A study of Arabidopsis thaliana with 12 samples.

Results

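The comparison set light-grown Arabidopsis thaliana seedlings of the amiR-SNF4 line, in which an artificial microRNA silences the gene SNF4, against light-grown wild type. It used 6 of the 12 arrays of the series, 3 of amiR-SNF4 and 3 of wild type, picked by their sample titles, and no other array entered the estimate of spread. RNA was read on Affymetrix ATH1 arrays, which measure each transcript with a group of short probes called a probe set, and 13356 genes that a probe set names singly were compared, of 22746 probe sets in all. The other 6 arrays were dark-grown seedlings of both genotypes and served for the normalization of all arrays together, for a check of the labels and to ask whether an effect differed between light and darkness.

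Both genotypes were of the Col-0 accession and, per the series text, both were raised on the inducer β-estradiol at 5 µM, which switches the artificial microRNA on. Seedlings grew at 22 °C on solid medium with 0.5% sucrose under short days of 8 h of light and 16 h of dark. Whole seedlings were taken 4 h into the light period, which the labels place at 5 days after germination and 7 days after sowing. Irradiance was written as 120 in the sample labels and 400 in the series text. Neither the promoter behind the microRNA nor the number of independent lines was given in the sources used here, and no uninduced amiR-SNF4 seedlings were among the samples, so silencing of SNF4 and other effects of the line cannot be told apart. The titles call the arrays of a group biological replicates, but nothing says that they came from separate cultures, so a p-value here speaks of array-to-array spread that may be technical.

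SnRK1 is the plant relative of yeast SNF1 and animal AMPK, a protein kinase that is active when sugar and energy run low. It is built from a catalytic alpha, a beta and a gamma-type subunit, and SNF4 encodes the activating subunit of the last kind. Active SnRK1 slows growth and biosynthesis and turns on the breakdown of starch, lipids and amino acids. Plant immunity has its own set of signals, among them salicylic acid and N-hydroxypipecolic acid, receptors at the cell surface and inside the cell, and secreted proteins that attack or wall off a pathogen.

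The level of SNF4 itself was not analysed here, because none of the named probe sets reads it, so the labels could not be checked against the silenced gene. They were checked against growth conditions instead. The 12 measured photosystem and Calvin cycle genes summed to 29600 to 30000 normalized intensity units in the light-grown amiR-SNF4 arrays and 37700 to 42400 in light-grown wild type, against 8280 to 14400 in dark-grown amiR-SNF4 and 17800 to 26700 in dark-grown wild type. The 7 measured seed reserve genes summed to 97.7 to 120 in amiR-SNF4 and 42.7 to 140 in wild type in the light, against 3060 to 5660 in amiR-SNF4 and 3530 to 5690 in wild type in darkness. Array medians before normalization were 69.1, 70.1, 86.1 in amiR-SNF4 and 61.2, 99.5, 82.4 in wild type. Arrays of the same genotype correlated at 0.981 to 0.986 and arrays of different genotypes at 0.921 to 0.930 across genes, which are not independent replicates. The first principal component of the 6 arrays held 76.1% of the variance. The ratio of 3′ to 5′ signal of the ubiquitin control transcript, a sign of RNA integrity, was 2.07, 1.99, 2.03 in amiR-SNF4 and 3.42, 2.17, 3.13 in wild type, without overlap, while those of actin and GAPDH overlapped; its part in the results was not tested.

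Between amiR-SNF4 and wild type, 3542 of 13356 genes (26.5%) differed at an adjusted p under 0.05 in limma's linear model, 1599 (12%) higher and 1943 (14.5%) lower. The counts of lists and families below are to be read against these 2 shares. All adjusted p-values below are from this model, with Benjamini-Hochberg adjustment over the 13356 genes, and all fold changes are amiR-SNF4 over wild type on the scale of log2(normalized intensity + 16), which understates the changes of dim genes. With arrays scaled to the hybridization controls instead, 2454 genes were called, 1532 higher and 922 lower. The arrays of the 2 genotypes did not overlap for 5398 genes (40.4%). The median change over all genes was -0.03 on the log2 scale, and the median within-group SD was 0.146 in amiR-SNF4 and 0.160 in wild type. In a fit of all probe sets, 7272 of 22746 (32%) were called, and of those without a gene name here 3373 of 8730 (38.6%).

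The response was lopsided in size. More genes fell than rose, though with hybridization control scaling 1532 rose and 922 fell. Large changes were mostly rises. Of 958 called genes (7.17%) that changed at least 2-fold, 623 (4.66%) rose and 335 (2.51%) fell. At least 4-fold, 188 rose and 33 fell, and at least 8-fold, 73 rose and 2 fell. Of those 73, 26 rose at least 16-fold and 12 at least 32-fold, and no called gene fell by 16-fold or more. The 2 directions also differed in wild-type signal, which depends on the probes as well as on the transcript. With genes ranked by wild-type signal into 4 bins of 3339, 222 rose and 21 fell in the lowest bin, whereas 419 rose and 971 fell in the highest. Of the 73 genes that rose at least 8-fold, 52 were in the lower 2 bins. A gene near the floor of the scale has little room to fall, so part of this pattern is fixed by the scale.

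**Figure D1:**
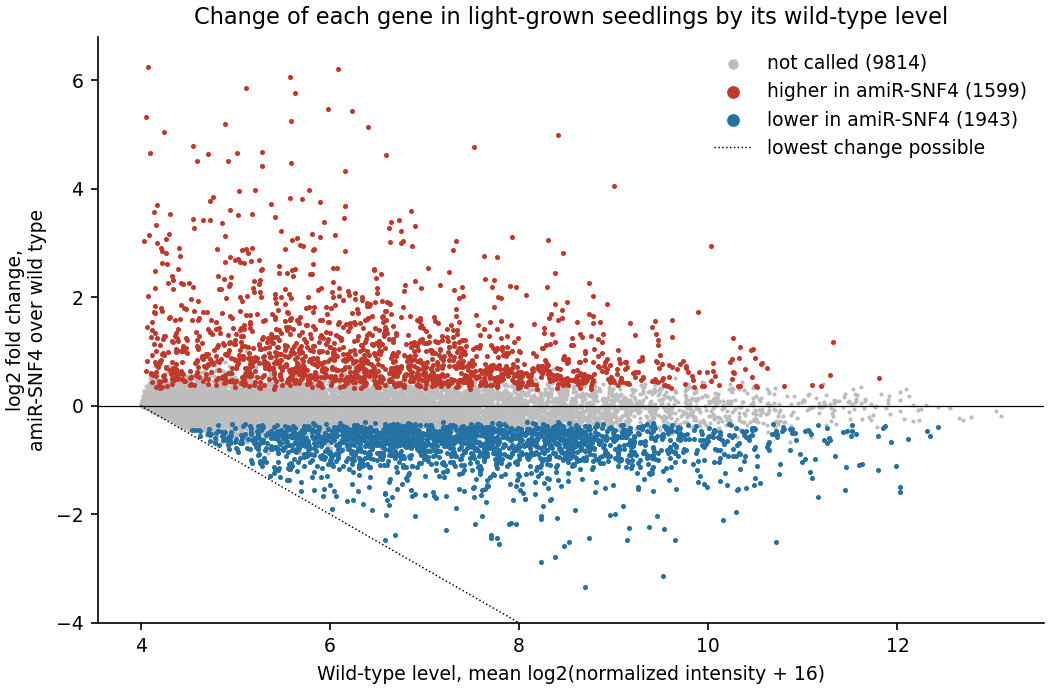
Change of each of the 13356 genes (vertical axis, log2 fold change, amiR-SNF4 over wild type) against its wild-type level (horizontal axis, mean log2(normalized intensity + 16) of 3 arrays), in light-grown seedlings. Red points are the 1599 genes called higher, blue points the 1943 called lower and grey points the rest; the dotted line marks the lowest change the scale allows, and the rises reach 6.24 where the falls reach -3.34.

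The largest rises included genes that gave almost no signal in wild type and genes with a low but clear signal there. AT3G28510, an AAA-ATPase of the BCS1-like family, read 1345, 1135 and 1309.98 in amiR-SNF4 and 1.01, 1.11 and 0.394 in wild type (log2 fold change 6.24 ± 0.10, SE, adjusted p = 1.7e-07). AT5G03350, a legume lectin-like protein that salicylic acid is known to induce, read 3325, 2889.5 and 3391 in amiR-SNF4 and 24.8, 40.7 and 31.6 in wild type (6.07 ± 0.14). AT3G60420, of the phosphoglycerate mutase family, read 1814, 1950.4 and 2203 in amiR-SNF4 and 19.5, 20.7 and 15.8 in wild type (5.85 ± 0.12). The ranking took only called genes without overlap between genotypes, so separation of the arrays was set by the rule. In each of the 3 genes the wild-type values were close to the floor, where the order of folds is uncertain. AT4G36430, a class III peroxidase, read 2779, 3841 and 3119 in amiR-SNF4 and 73.6, 50.9 and 54.3 in wild type (5.43 ± 0.16). OSM34, an osmotin-like protein of the thaumatin family, read 2773, 3119 and 2986 in amiR-SNF4 and 103, 68.3 and 44.6 in wild type (5.13 ± 0.23), with the wild-type arrays spread more than 2-fold and still far below. AT4G33720, a PR-1-like secreted protein, read 568, 614 and 642 in amiR-SNF4 and 6.73, 1.24 and 1.44 in wild type (5.04 ± 0.13). The other 6 of the 12 largest rises were AT1G21520 (6.20), AT2G30670 (5.76), the AAA-ATPase AT1G43910 (5.47), the heavy-metal-associated protein AT5G52760 (5.31), the lipase-like AT5G24210 (5.25) and the germin-like AT5G38910 (5.20). In the top bin of 4 by mean signal over the 6 arrays, which a gene can enter through its amiR-SNF4 arrays alone, the 5 largest rises belonged to AT1G21520, AT5G03350, AT3G60420, AT2G30670 and AT1G43910.

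The largest falls were smaller than the largest rises and included single genes of ethylene synthesis, cold response and root hairs. AT4G29030 read 7.27, 38.4 and 38.2 in amiR-SNF4 and 443, 429 and 332 in wild type (-3.34 ± 0.32, adjusted p = 0.000287). AT4G22490, of the lipid transfer protein family, read 57.0, 89.0 and 60.5 in amiR-SNF4 and 772, 791 and 608 in wild type (-3.13 ± 0.17). AT1G12010, an ACC oxidase of ethylene synthesis, read 22.0, 21.0 and 31.7 in amiR-SNF4 and 303, 235 and 321 in wild type (-2.89 ± 0.16). The ranking of falls also took only called genes without overlap between genotypes, so this separation was set by the rule. The first amiR-SNF4 array of AT4G29030 lay well below the other 2. COR47, a dehydrin that cold and drought induce, read 292, 282 and 271 in amiR-SNF4 and 1641, 1622 and 1753 in wild type (-2.50 ± 0.09) and varied little within each genotype. AT4G26010, a peroxidase of root hair cells, read 31.6, 34.9 and 30.6 in amiR-SNF4 and 301, 252 and 417 in wild type (-2.78 ± 0.17). In whole seedlings, fewer cells of a type and less RNA per cell cannot be told apart. The remaining falls in the first 12 were AT4G38690 (-2.59), AT4G37220, a cold acclimation WCOR413-like protein (-2.54), MSRB6, a methionine sulfoxide reductase (-2.51), the jacalin-related lectins AT1G52060 (-2.48) and AT1G52070 (-2.44), AT5G23840 (-2.48) and AT4G39675 (-2.46). The 5 largest falls in the top bin by mean signal over both genotypes were those of AT4G22490, COR47, AT1G52060, AT4G39675 and AT1G52070.

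**Figure D2:**
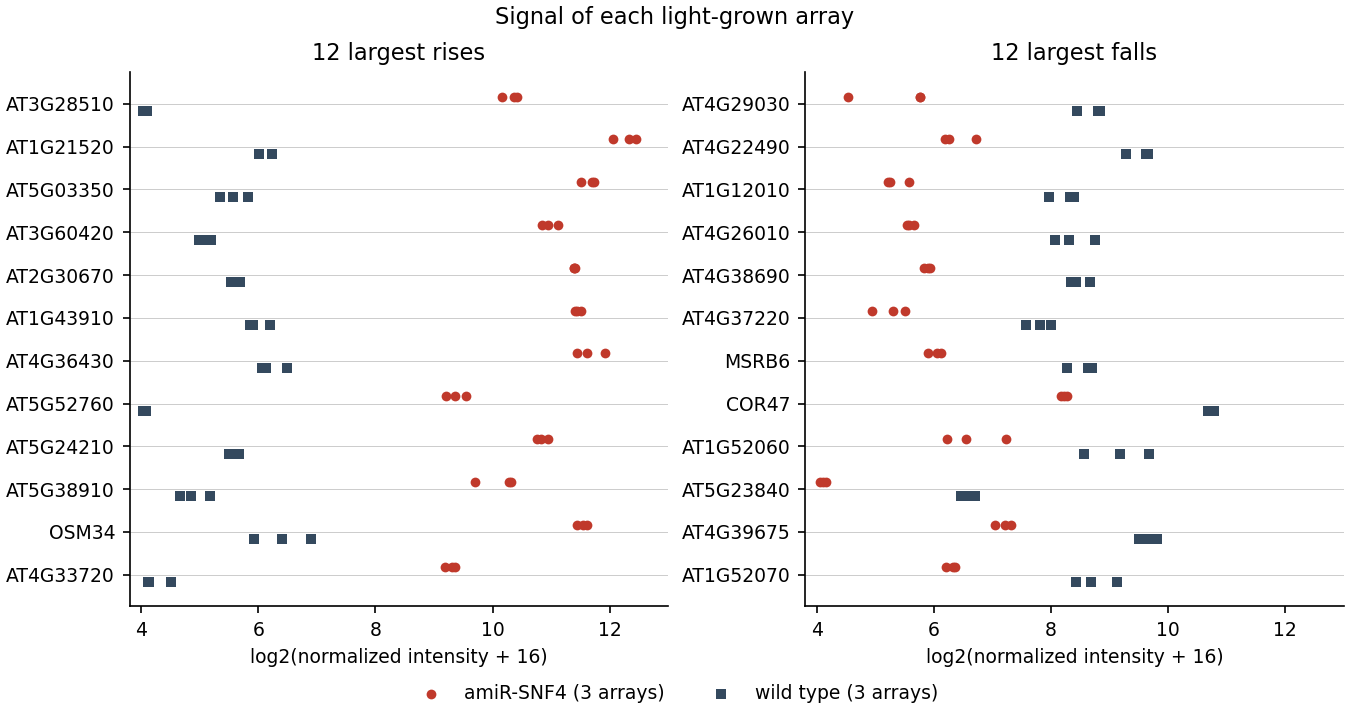
Signal of every light-grown array (horizontal axis, log2(normalized intensity + 16)) for the 12 largest rises (left) and the 12 largest falls (right) among called genes without overlap. Red circles are the 3 amiR-SNF4 arrays and dark squares the 3 wild-type arrays of each gene; several wild-type values on the left sit at the floor of 4.

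Of 12 genes listed for the SnRK1 complex, 4 were measured, and 2 fell. AKINBETA1, a beta subunit, read 326, 361 and 281 in amiR-SNF4 and 647, 657 and 613 in wild type (-0.96 ± 0.12, adjusted p = 0.000876). AT4G16360 (KINB2), another beta subunit, read 134, 107 and 121 in amiR-SNF4 and 173, 193 and 196 in wild type (-0.58 ± 0.11, adjusted p = 0.00813). AKINBETA1 and AT4G16360 were lower on all 3 amiR-SNF4 arrays than on any wild-type array, as were 22.8% of all genes. The call of AT4G16360 was lost without normalization between arrays and with hybridization control scaling. The other measured genes of the list, AT2G28060 (0.33, adjusted p = 0.0984) and AT1G15330 (0.20, adjusted p = 0.335), were not called. AT2G28060 was higher on every amiR-SNF4 array than on any wild-type array. In the list of genes that SnRK1 activates or that starvation induces, 3 of 6 fell, 1 rose, and all 3 that fell encode enzymes of leucine breakdown. MCCB, a subunit of methylcrotonyl-CoA carboxylase, read 326, 278 and 277 in amiR-SNF4 and 572, 607 and 639.6 in wild type (-1.01 ± 0.11). MCCA, the other subunit, was at -1.07 ± 0.19 and IVD, isovaleryl-CoA dehydrogenase, at -0.84 ± 0.12. The riser was BZIP53, a bZIP transcription factor of amino acid metabolism and seed maturation, which read 1692, 1728 and 1542 in amiR-SNF4 and 592, 528 and 562 in wild type (1.53 ± 0.10). In the wider list of branched-chain amino acid and lipid breakdown, 5 of 10 fell and none rose, with a median of -0.25 against -0.03 for all genes.

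Sugar and starch genes moved in both directions and by little. Of 8 measured, 4 rose (50%) and 2 fell (25%), against 12% and 14.5% of all genes, and none by 2-fold. With any single array left out, only 1 or 2 of the rises were called. The vacuolar invertase gene AT1G62660 read 913, 993 and 979 in amiR-SNF4 and 499, 479 and 675 in wild type (0.80 ± 0.14), and the starch branching enzyme gene SBE2.2 was at -0.76 ± 0.15. SWEET11, a sucrose exporter of the phloem, read 1120.1, 1067 and 1008 in amiR-SNF4 and 1362, 1508 and 1381 in wild type (-0.41 ± 0.10, adjusted p = 0.0205); its call was lost under 8 of the alternatives. The trehalose list was not analysed here, since none of its genes was among the 13356.

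The 3 measured genes of the pipecolate list rose, as did 2 of 4 measured in the list of salicylate synthesis and immune signalling, with UGT76B1 in both lists. UGT76B1, a glycosyltransferase that caps salicylic acid and N-hydroxypipecolic acid, read 1473, 1277 and 1359.9 in amiR-SNF4 and 95.8, 77.3 and 132 in wild type (3.58 ± 0.17, adjusted p = 9.94e-06). SAG101, a lipase-like partner of the immune regulator EDS1, read 464, 499 and 495 in amiR-SNF4 and 68.5, 59.6 and 91.6 in wild type (2.51 ± 0.14). AT5G52810 (SARD4), a reductase of pipecolate synthesis, read 384, 449 and 499 in amiR-SNF4 and 70.9, 78.1 and 71.3 in wild type (2.36 ± 0.12). All 3 were separated between genotypes on every array, as were 40.4% of all genes. The third measured entry of the pipecolate list, the lipid transfer protein gene AT5G55450, was at 3.02 ± 0.20. Of 27 genes listed for salicylate synthesis and immune signalling 4 were measured, and the 2 others, UGT74F1 (0.23) and BSMT1 (0.10), both of salicylate modification, were not called. All 7 measured members of a list of salicylate responsive genes rose, with a median of 5.31. That list was drawn up with earlier results of these arrays known and is no independent evidence of direction. Its members AT3G28510, AT5G52760, CHI and ATERDJ3B are counted again in other groups below, so those groups are not separate observations. Its smallest rises were those of GRX480, a glutaredoxin of salicylate signalling (2.00), and of the endoplasmic reticulum chaperone gene ATERDJ3B (1.88).

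At the cell surface, genes of pattern-triggered immunity rose in part. Of 8 measured, 5 rose and WRKY22 fell (-0.62). WRKY53, a transcription factor of defence and senescence, read 184, 189 and 196 in amiR-SNF4 and 14.7, 21.7 and 12.2 in wild type (2.69 ± 0.13), and WRKY6 read 209, 230.1 and 237 in amiR-SNF4 and 57.6, 46.0 and 48.4 in wild type (1.86 ± 0.11). The receptor kinase EFR, which detects bacterial EF-Tu, was at 1.33 ± 0.16, the cytoplasmic kinase BIK1 at 0.62 ± 0.13 and the ubiquitin ligase PUB24 at 1.42 ± 0.10. Among 6 wall-associated kinases, receptors that touch pectin, 2 rose, and AT1G69730 read 285, 228 and 348 in amiR-SNF4 and 10.2, 14.5 and 14.6 in wild type (3.36 ± 0.16). Malectin-like receptor kinases with leucine-rich repeats split, 6 of 36 higher (16.7%) and 5 lower (13.9%), which is near the 12% and 14.5% of all genes, and 2 or 3 falls were called without any 1 array but wild type replicate 1; AT1G51890 was at 1.82 and AT1G51830 at -1.12.

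Genes listed under intracellular immune receptors of the TIR class rose far more often than they fell. Whether each listed gene encodes a full receptor was not examined. Of 91 measured genes of this class, 29 rose (31.9%) and 4 fell (4.4%), against 12% and 14.5% of all genes, with a median of 0.19; 18 rose and 1 fell without normalization between arrays. AT2G20142 read 209.6, 231 and 253 in amiR-SNF4 and 23.8, 16.4 and 17.8 in wild type (2.81 ± 0.12), and AT1G72900 read 488, 452 and 518 in amiR-SNF4 and 81.7, 82.1 and 68.1 in wild type (2.43 ± 0.11). The largest rise of the class, AT1G57630, was 3.57 ± 0.38 and the largest fall, AT5G40100, was -1.37 ± 0.12. Of these 91, 14 rose at least 2-fold and 1 fell as far. Of 23 receptors of the CC class 6 rose and none fell, all less than the larger TIR rises: AT5G47250 was highest at 1.12 ± 0.11 and AT1G59780 followed at 0.98 ± 0.15, and 3 of the 6 were called without wild type replicate 2. Receptors of these classes are close paralogs, and a probe set can pick up more than 1 of them.

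Secreted defence proteins did not move as a block. The shares of all genes to set beside each count were 12% higher and 14.5% lower. Of 15 chitinases, enzymes that cut fungal cell walls, 9 rose (60%) and none fell, with a median of 1.54. AT3G47540 read 558, 763 and 691 in amiR-SNF4 and 33.2, 31.9 and 30.2 in wild type (3.84 ± 0.13), and AT4G19730 read 110.4, 105 and 86.5 in amiR-SNF4 and 2.30, 3.31 and 2.42 in wild type (2.64 ± 0.11). CHI was at 3.48. Of 19 PR-1-like proteins, by contrast, AT4G33720 alone rose, and 8 fell (42.1%), AT4G30320 the furthest (-1.07). The count of falls depended on the setting: 3 were called without normalization and with hybridization control scaling, and 2 to 5 with any single array left out. Thaumatin-like proteins split into 5 higher (3 without amiR-SNF4 replicate 1 or 2 or wild type replicate 3) and 6 lower of 19, with OSM34 at one end and AT4G38660 at the other (-1.71 ± 0.12). Of 11 germin-like proteins 3 rose (27.3%) and 1 fell (9.09%), which are small counts. AT5G39130 read 40.3, 43.2 and 44.2 in amiR-SNF4 and 1.36, 1.81 and 2.28 in wild type (1.72 ± 0.09).

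Class III peroxidases, secreted enzymes that make or use hydrogen peroxide in the cell wall, spanned nearly the whole range of the response. Of 54 measured, 14 rose (25.9%) and 18 fell (33.3%), both above the shares of all genes, and the median was -0.10. AT3G03670 read 221, 208 and 209 in amiR-SNF4 and 8.59, 4.65 and 9.89 in wild type (3.28 ± 0.12). At the other end, after AT4G26010, stood AT3G49960 at -2.39 ± 0.31, AT3G01190 at -2.01 ± 0.14 and AT5G17820 at -1.85 ± 0.13. Of these peroxidases, 10 rose at least 2-fold and 14 fell as far. AT5G51890, a marker of xylem in the lists, read 119.7, 96.1 and 112 in amiR-SNF4 and 318, 342 and 337 in wild type (-1.48 ± 0.11).

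Small families of poorly characterised enzymes and binding proteins held some of the largest rises; these groups were formed after their values were seen. Of 15 BCS1-like AAA-ATPases 9 rose (60%), against 12% of all genes, with a median of 0.85. AT4G25835 alone fell (-0.52, a call lost under 8 alternatives). After AT3G28510 and AT1G43910 came AT5G17760 (4.62), AT3G28540 (3.54) and AT3G28580 (3.15). Of 9 measured heavy-metal-associated proteins whose loci run from AT5G52670 to AT5G52770, 8 rose, with a median of 3.04. AT5G52750 read 840.3, 1082 and 1048 in amiR-SNF4 and 25.7, 23.8 and 19.7 in wild type (4.68 ± 0.13), and AT5G52770, at the end of the array, was at 0.18 and not called. Of 22 berberine bridge enzyme-like oxidases, flavoproteins of which some oxidise cell wall fragments, 10 rose and 3 fell, with a median of 0.25. AT5G44400 read 878, 914 and 774 in amiR-SNF4 and 36.0, 48.2 and 33.7 in wild type (3.98 ± 0.13), and AT1G26420 read 100.4, 95.2 and 115 in amiR-SNF4 and 3.95, 4.92 and 1.66 in wild type (2.61 ± 0.11).

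Genes that rose strongly were then set against their neighbours on the chromosome. Of 5814 pairs of protein-coding genes next to each other in the TAIR10.1 gene table with both members measured, 302 had a first member that rose at least 2-fold, and the second rose as far in 34 of them (11.3%), against 5.19% of all second members. For falls of at least 2-fold these shares were 5.82% (11 of 189) and 2.86%. Neighbours include tandem duplicates, whose probe sets can share targets, and no test was made. The only runs of 3 measured neighbours that all rose at least 2-fold were GSTU22, GSTU21 and GSTU20, and AT5G52670, AT5G52680 and AT5G52690, and no such run fell.

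Families of calcium sensors and detoxification genes had more members higher than lower, and many without a call. Of 32 calmodulin-like proteins 12 rose (37.5%) and 4 fell (12.5%). AT2G41090 read 3641, 5737 and 6079 in amiR-SNF4 and 176, 169.9 and 159 in wild type (4.78 ± 0.19), and AT3G47480 read 588, 613 and 725 in amiR-SNF4 and 20.5, 7.76 and 4.62 in wild type (4.65 ± 0.21). Of 34 MATE efflux transporters, which export small molecules, 12 rose and 6 fell; AT2G04050 read 780.3, 760.3 and 866 in amiR-SNF4 and 18.7, 18.5 and 12.3 in wild type (4.66 ± 0.12), and AT2G04070 was at 3.84 ± 0.13. Of 51 UDP-glycosyltransferases 15 rose and 9 fell (5 without amiR-SNF4 replicate 2 or wild type replicate 3), with UGT87A2 at 2.77 ± 0.14. Among 14 glutathione S-transferases, which attach glutathione to reactive compounds, 6 rose and 3 fell. GSTU22 read 907, 1008 and 1063 in amiR-SNF4 and 183, 164 and 207 in wild type (2.33 ± 0.12), GSTU21 was at 1.74 and GSTU20 at 1.27, whereas GSTU26 read 41.2, 33.6 and 49.4 in amiR-SNF4 and 147, 141 and 158 in wild type (-1.53 ± 0.13). Of 252 cytochrome P450 entries only 23 were measured, most of them of the CYP71B subfamily, so the counts do not describe the whole family. Of these 23, 5 rose (21.7%) and 3 fell (13%), against 12% and 14.5% of all genes. The rises were led by CYP71B23 (1.95) and CYP71B6 (1.17), and 2 or 3 were called without amiR-SNF4 replicate 2 or 3 or wild type replicate 2. AT2G04400, indole-3-glycerol phosphate synthase of tryptophan synthesis and the measured gene of the camalexin list, read 1022, 1113 and 961 in amiR-SNF4 and 299, 308 and 317 in wild type (1.69 ± 0.10).

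**Figure D3:**
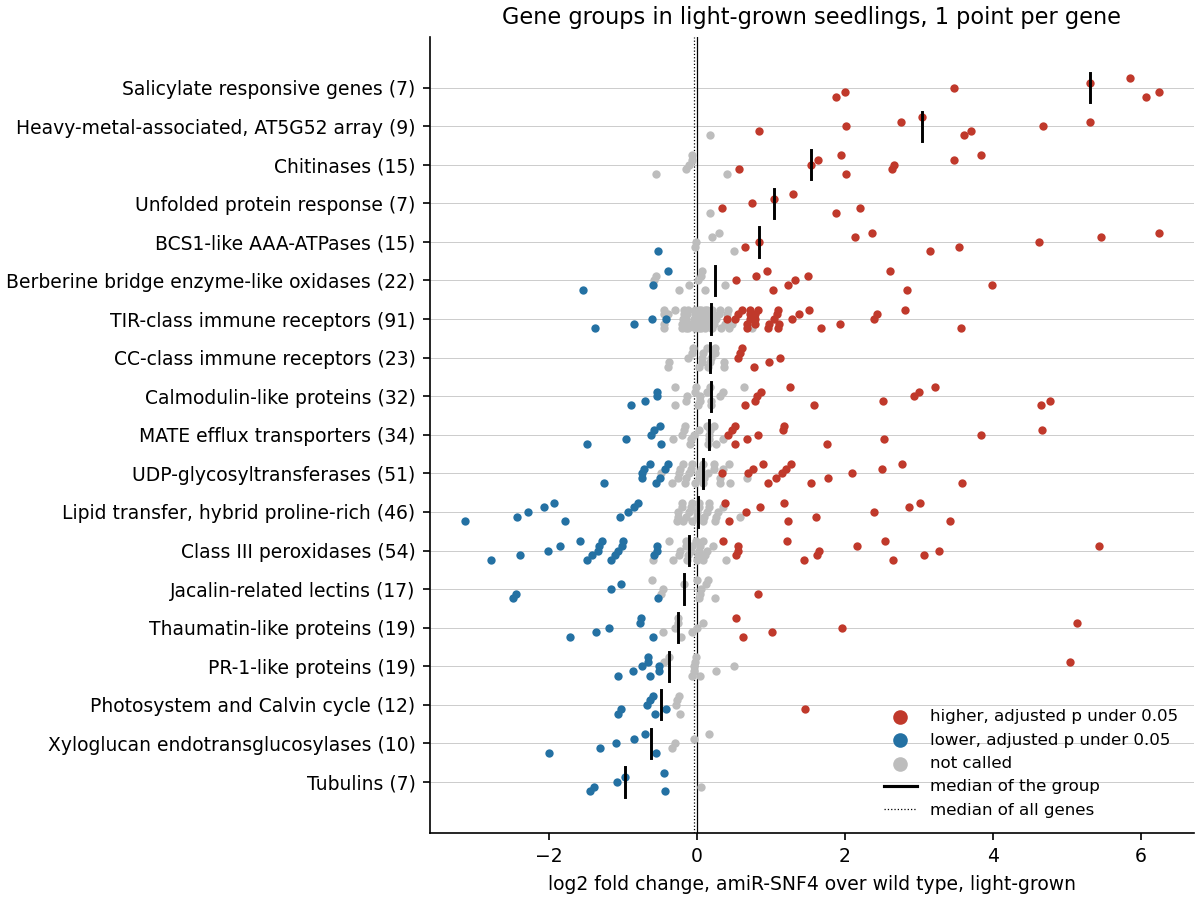
Log2 fold change, amiR-SNF4 over wild type in the light (horizontal axis), of each measured gene of 19 groups, with the number of measured genes in brackets. Red points were called higher, blue points lower and grey points neither; the black bar is the group's median and the dotted line the median of all genes. Chitinases and the AT5G52 array hold no blue point, tubulins and xyloglucan endotransglucosylases no red one, and peroxidases reach from -2.78 to 5.43.

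The unfolded protein response raises the folding capacity of the endoplasmic reticulum. Of 7 measured genes 6 rose and none fell, with a median of 1.04. BZIP60, a transcription factor spliced on protein misfolding, read 952, 1108 and 1201 in amiR-SNF4 and 264, 191 and 219 in wild type (2.201 ± 0.15). ATERDJ3B read 1181, 1234 and 1221 in amiR-SNF4 and 338, 318 and 299 in wild type (1.88 ± 0.10), and the calreticulin gene CRT1b read 1460.1, 1475 and 1444 in amiR-SNF4 and 598, 536 and 618 in wild type (1.30 ± 0.10). All 3 were without overlap between genotypes, as were 40.4% of all genes. Without normalization between arrays, 3 of the 6 were called. BZIP28, a membrane-bound factor of the same response, had the smallest rise at 0.34, with an adjusted p that rounds to 0.05 and lies below it and a call lost under 12 alternatives, and the related BZIP17 was at 0.18 and not called. Of 29 genes of ER translocation and glycosylation 9 rose (31%) and 1 fell; AT3G60540, a Sec61 beta subunit of the translocation channel, read 359, 572 and 621 in amiR-SNF4 and 63.6, 54.3 and 49.8 in wild type (2.86 ± 0.20), and the next largest rise was that of ATERDJ2B (1.19). Coat and cargo receptor genes of the early secretory pathway were nearer the background, with 5 of 28 higher (17.9%) and 2 lower (7.14%), and 3 were higher without amiR-SNF4 replicate 3 or wild type replicate 2.

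Mitochondrial, oxidative and heat stress genes rose in most cases. AT2G21640 (UPOX), a marker of oxidative stress in mitochondria, was at 2.60 ± 0.22, and NDB2, an alternative NADH dehydrogenase, read 204, 244 and 247 in amiR-SNF4 and 59.0, 61.1 and 57.3 in wild type (1.72 ± 0.11). The list had 5 of 7 members higher, with GSTU26 the 1 that fell. GSTU22, GSTU25 and GSTU26 of this list are also counted among the glutathione S-transferases. Of 5 heat shock genes 3 rose: AT1G53540 (HSP17.6C) read 37.2, 42.4 and 40.8 in amiR-SNF4 and 14.2, 10.7 and 1.54 in wild type (1.21 ± 0.20), AT5G51440 (HSP23.5) was at 1.25 ± 0.13 and AT2G20560, a DnaJ protein, at 0.90 ± 0.12. The autophagy and senescence list had 6 of 16 higher and none lower. ATG8B and APG8A encode ubiquitin-like proteins that coat autophagosomes; ATG8B read 380.1, 403 and 479 in amiR-SNF4 and 138, 142 and 139 in wild type (1.48 ± 0.11) and APG8A read 703, 894 and 824 in amiR-SNF4 and 301, 388 and 398 in wild type (1.13 ± 0.15). Of the 6, 1 was called without normalization between arrays and 3 without wild type replicate 2.

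Tubulins, xyloglucan endotransglucosylases and cell division genes fell in most cases, and expansins and histones did not move as a block. Of 7 tubulins, the subunits of microtubules, 6 fell (85.7%) and none rose, with a median of -0.97; TUB5 read 445, 431 and 361 in amiR-SNF4 and 980.2, 1164 and 1156 in wild type (-1.38 ± 0.12) and TUB1 read 29.5, 21.0 and 21.7 in amiR-SNF4 and 96.0, 81.3 and 101 in wild type (-1.44 ± 0.13). Tubulin genes are close copies of each other, so their probe sets may share targets. Of 10 xyloglucan endotransglucosylases, which cut and rejoin wall polymers, 6 fell and none rose; XTH16 read 116, 119 and 106 in amiR-SNF4 and 547, 509 and 449.9 in wild type (-1.99 ± 0.11) and XTH33 was at -1.09 ± 0.12. Of 5 measured cell division genes 4 fell, with 3xHMG-box2, a chromatin protein of mitotic cells, at 46.1, 57.3 and 40.3 in amiR-SNF4 and 135, 190.04 and 179 in wild type (-1.52 ± 0.16), 3xHMG-box1 at -0.99 ± 0.10 and the mitotic kinase gene AUR2 at -0.75 ± 0.16. COB, which orients cellulose in elongating cells, was at -0.93 ± 0.15. HIS1-3, a linker histone induced by drought, read 22.7, 25.2 and 26.3 in amiR-SNF4 and 159, 196 and 155 in wild type (-2.18 ± 0.12), the largest of 3 falls among 7 histone genes. Expansins, which loosen walls, had 3 of 19 higher (15.8%) and 4 lower (21.1%), near the 12% and 14.5% of all genes, with 1 or 2 falls called without amiR-SNF4 replicate 2 or 3 or wild type replicate 1 or 3. EXPA4 read 1389, 1362 and 1194 in amiR-SNF4 and 146, 148 and 142 in wild type (3.04 ± 0.10) and EXPA16 read 195, 231 and 243 in amiR-SNF4 and 74.2, 86.5 and 59.5 in wild type (1.42 ± 0.14), while the falls reached -0.72 for EXPA8.

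Wall and surface families of larger size held genes that moved in either direction. Of 46 lipid transfer and hybrid proline-rich proteins 11 rose (23.9%) and 10 fell (21.7%), from AT4G12490 at 1058, 1042 and 1292 in amiR-SNF4 and 72.7, 90.6 and 111 in wild type (3.42 ± 0.16) to AT4G22490. AT2G18370 was at 2.87 ± 0.11. Of 73 GDSL lipases 10 rose and 19 fell (26%); AT5G33370 read 4.07, 6.62 and 6.29 in amiR-SNF4 and 54.3, 64.9 and 51.7 in wild type (-1.75 ± 0.11) and AT3G50400 read 158, 167 and 165 in amiR-SNF4 and 51.0, 39.3 and 41.4 in wild type (1.59 ± 0.11). Of 45 pectin methylesterases, which change the charge of pectin, 6 rose (13.3%) and 10 fell (22.2%), against 12% and 14.5% of all genes; with hybridization control scaling 7 rose and 6 fell, and 6 fell without amiR-SNF4 replicate 3 or wild type replicate 2. ATPMEPCRB was at 1.52 ± 0.11 and PMEPCRF at 1.29 ± 0.12. Of 17 jacalin-related lectins 5 fell and 1 rose; JAL33 read 583, 571 and 529 in amiR-SNF4 and 1285, 1245 and 1294 in wild type (-1.16 ± 0.09).

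Photosynthesis genes fell in part, mostly by little. Of 12 measured photosystem and Calvin cycle genes 7 fell (58.3%) and 1 rose (8.33%), against 14.5% and 12% of all genes. Their median was -0.49. PSB27, an assembly factor of photosystem II, read 1537, 1447 and 1481 in amiR-SNF4 and 3568, 3119 and 2779 in wild type (-1.07 ± 0.12), and LHCB4.2, a minor antenna protein, read 407, 381 and 344 in amiR-SNF4 and 869, 775 and 714 in wild type (-1.03 ± 0.12). LHCB4.3, a related antenna protein, went the other way and read 268, 229 and 301 in amiR-SNF4 and 79.7, 85.1 and 91.8 in wild type (1.47 ± 0.12). All 3 amiR-SNF4 arrays of LHCB4.3 lay above every wild-type array. Of 3 chlorophyll and light signalling genes 2 fell, both of chlorophyll synthesis: CHLM read 1229.9, 1011 and 1098 in amiR-SNF4 and 2149.9, 2154 and 2356 in wild type (-0.99 ± 0.11) and PORB read 443, 406 and 398 in amiR-SNF4 and 724, 778 and 719 in wild type (-0.81 ± 0.10). GI of the circadian clock, the 1 clock gene measured, read 58.8, 63.6 and 67.1 in amiR-SNF4 and 56.0, 52.1 and 71.5 in wild type (0.07 ± 0.12, adjusted p = 0.757), with overlapping arrays. No flavonoid gene of 5 was called, and UGT78D1 had the smallest p (0.68 ± 0.24, adjusted p = 0.0788).

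Hormone lists were thinly measured. Besides COR47, the dehydrin gene LTI30 fell in the abscisic acid and water stress list (132, 186 and 176 in amiR-SNF4 and 362, 399.6 and 389.6 in wild type, -1.16 ± 0.14), 2 of 4 in all. In the auxin and elongation list 3 of 6 measured genes rose and 2 fell, the falls being those of COB (-0.93) and EXPA8 (-0.72). GH3.3, which conjugates auxin to amino acids, read 629, 506 and 581 in amiR-SNF4 and 35.6, 60.8 and 57.4 in wild type (3.14 ± 0.17). WES1, of the same enzyme family, read 301, 331 and 272 in amiR-SNF4 and 135, 126 and 115 in wild type (1.17 ± 0.11). Apart from AT1G12010, no member of the 4 measured in the jasmonate and ethylene list was called.

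Few markers of single cell types were among the genes compared. Of 3 root hair and root epidermis markers 2 fell, AT4G26010 and EXPA18 (-0.62 ± 0.16, adjusted p = 0.0251, a call lost under 7 alternatives). EXPA7 was not called (-0.37, adjusted p = 0.192). The 3 together summed to 95.4 to 118 normalized intensity units in amiR-SNF4 and 343 to 556 in wild type, where AT4G26010 averaged 323 and made up most of the sum. The 2 xylem markers summed to 174 to 190 in amiR-SNF4 and 424 to 442 in wild type. Most of the sum came from AT5G51890 (-1.48), and GUT2 was not called (-0.40, adjusted p = 0.0951). The 5 cell division markers summed to 510 to 547 in amiR-SNF4 and 816 to 878 in wild type. None of 3 guard cell, 2 phloem or 1 inner root markers was called. The 1 called seed and storage gene was ICL, isocitrate lyase of lipid use (68.8, 58.3 and 49.7 in amiR-SNF4 and 8.49, 2.46 and 45.7 in wild type, 1.30 ± 0.40, adjusted p = 0.0495), a call lost under 10 alternatives. AT4G26010, the root marker that fell most, is itself 1 of the falling class III peroxidases, so these 2 groups are not separate observations. The part of root tissue in the falls was not tested.

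The effect in light was then set against that in dark-grown seedlings, in a model of all 12 arrays. The effect differed between light and darkness for 1066 genes (7.98%), 543 (4.07%) more positive in light and 523 (3.92%) more negative. Without normalization between arrays it differed for 278, with 88 more positive and 190 more negative. In darkness 14.3% of all genes were higher and 16.5% lower in the 12-array model. The light calls counted next came from the fit of the light-grown arrays alone, so light and dark calls rest on different estimates of spread. With the spread of 12 arrays, 1221 genes were called higher in light and 1329 lower. Of the 1599 genes called higher in light, 1045 (65.4%) were also higher in darkness and 59 were lower there. Of the 1943 called lower in light, 1127 (58%) were also lower in darkness and 36 were higher. Of the genes higher in darkness, 54.7% were higher in light, and of those lower in darkness, 51.2% were lower in light. Among the genes called higher in light the difference was called for 360, with 180 more positive in light and 180 more negative.

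The 5 smallest p-values of the difference belonged to OCT1, GAT1_2.1, AT5G03350, ATPMEPCRD and AT5G16010. GAT1_2.1, a glutamine amidotransferase-like protein, read 363, 444 and 367 in amiR-SNF4 and 80.9, 74.7 and 67.4 in wild type in the light (2.17 ± 0.12), and its dark effect was -1.58 ± 0.14, a difference of 3.75 ± 0.20 (adjusted p = 1.05e-06). AT5G03350 rose in both, by 6.07 in light and 2.23 ± 0.15 in darkness, a difference of 3.84 ± 0.22. OCT1, an organic cation transporter, was near the floor on all light-grown arrays (1.99, 3.10 and 1.29 in amiR-SNF4 and 0.782, 0.691 and 0.619 in wild type) and had a dark effect of -4.52 ± 0.13. ATPMEPCRD, a pectin methylesterase, was at -0.87 ± 0.16 in light and -4.81 ± 0.17 in darkness, and AT5G16010 at -0.05 ± 0.11 (not called) and 3.34 ± 0.15. GAT1_2.1 had opposite signs in the 2 conditions, and OCT1 and AT5G16010 were called in darkness but not in light.

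Some genes named above for the light response were not called in darkness in that model, WRKY53, AT1G69730, MSRB6 and ATG8B among them. For WRKY53 the dark effect was 0.21 ± 0.16, for AT1G69730, near the floor in both dark-grown groups, 0.31 ± 0.21, for MSRB6 -0.05 ± 0.16 and for ATG8B 0.15 ± 0.22. LHCB4.3 (-0.43 ± 0.13), WES1 (-0.44 ± 0.17), EXPA16 (-0.53 ± 0.16) and PMEPCRF (-0.54 ± 0.16) rose in light and had negative fitted effects in darkness, called for all but WES1 (adjusted p = 0.0639). OSM34 rose in both, by 5.13 in light and 1.73 ± 0.25 in darkness. Others had a larger effect in darkness: AT5G38910 had 7.58 ± 0.26 there against 5.20 in light, AT3G60420 7.55 ± 0.12 against 5.85, and SWEET11 -3.74 ± 0.18 against -0.41. The difference between the conditions was called for each of these 12 genes; the call was lost for ATG8B under 3 alternatives (without normalization, with hybridization control scaling and without amiR-SNF4 replicate 3), for AT5G38910 under 2 (hybridization control scaling and a pseudocount of 1) and for AT3G60420 under hybridization control scaling.

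**Figure D4:**
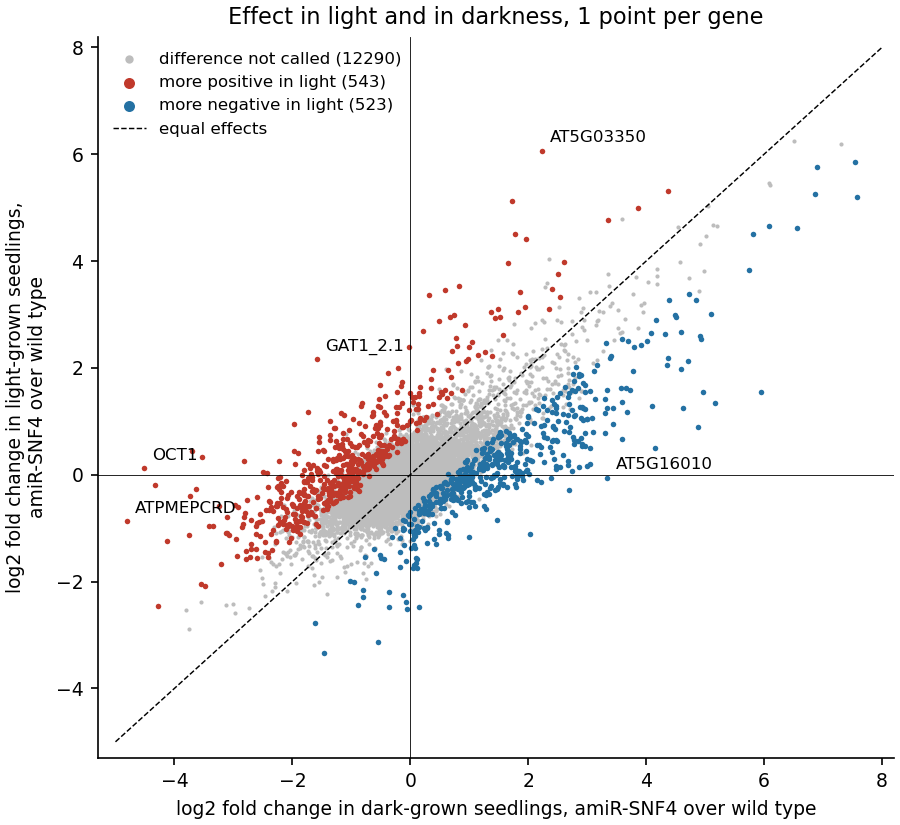
Log2 fold change, amiR-SNF4 over wild type, of each of the 13356 genes in light-grown (vertical axis) and dark-grown seedlings (horizontal axis), from the model of all 12 arrays. Red points had a more positive effect in light (543), blue points a more negative one (523) and grey points no called difference; the dashed line marks equal effects, and the 5 genes with the smallest p of the difference are named.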

How the data were processed

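RNA of whole seedlings was measured on Affymetrix ATH1 arrays. The authors deposited 1 linear intensity for each probe set on each array, made with GCOS, Affymetrix's array software, per the submitters' processing notes; its version, and whether it scaled the arrays, are not given in the sources used here. Because medians differed between arrays, the 22746 non-control probe sets of all 12 arrays were quantile-normalized on the log2 scale before log2(intensity + 16) was taken. Without detection calls, a single value cannot be set against its background, and the number of arrays limits the precision. No column of other samples was used (0 columns).

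The platform annotation gave 1 gene for 13513 of them and several for 503, which were left out, and 8730 (38.4%) carry no name here. Where several probe sets read 1 gene (146 genes), that of highest mean signal stood for it, giving 13356 genes, 13286 of them matched to the TAIR10.1 gene table, which was used for names and neighbours only. Of the genes kept, 282 are read by probe sets designed to match several transcripts. Genes were fitted with limma 3.58.1 in R 4.3.3 (lmFit, eBayes) on the 6 light-grown arrays, and the difference between light and darkness on all 12; both fits were tested on simulated arrays. Calls were made where p, after Benjamini-Hochberg adjustment, was under 0.05. Alternatives were other scalings, pseudocounts of 1 and 64, a filter at a mean intensity of 50, means of probe sets, the spread of 12 arrays, a replicate block, a trended robust prior and leaving out each array.

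The comparison, gene lists, families and naming rule were chosen with earlier results of these data known. The rule took the 12 largest rises and falls among called genes without overlap, the 5 largest of each in the top bin of 4 by mean signal, up to 3 called members per list and 2 per family by smallest adjusted p, and the 5 smallest p-values of the difference. The members of the families were filled in by locus after the annotation had been seen, and the berberine bridge enzyme-like, BCS1-like, AT5G52, jacalin-related, malectin-like, thaumatin-like, PR-1-like and germin-like groups were formed after their values were seen. The families serve as description only. Genes named outside the rule, chosen after their values were seen, are AT1G57630, AT2G21640, AT3G01190, AT3G28540, AT3G28580, AT3G49960, AT4G25835, AT4G30320, AT5G17760, AT5G17820, AT5G40100, AT5G52670, AT5G52680, AT5G52690, AT5G52770, ATERDJ2B, BIK1, BSMT1, BZIP17, BZIP28, CHI, EFR, EXPA8, GRX480, GSTU20, GSTU21, UGT74F1 and WRKY22.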

Additional observations from a re-analysis of the deposited data

Results flagged for a closer look

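The 63 genes below, of 145 named here, were picked out because the effect of the genotype differed between light and darkness. The adjusted p for the difference itself was under 0.05 in limma's model of all 12 arrays. Each value in brackets is the log2 fold change in light minus that in darkness, amiR-SNF4 over wild type in both. Over all genes 7.98% had such a difference. Many of the named genes were chosen for large effects, for a small p or after their values were seen. Their share with a difference therefore cannot be set against that of all genes. Groups of 3 arrays were too small to test single arrays as outliers. Of the 63 differences, 34 lost the call under at least 1 alternative. It was lost most often for WRKY22, LTI30, WRKY6 and AT4G29030 (9 alternatives each), AT3G03670 (8), and CHI and AT3G16530 (7 each). In darkness, AT1G69730, AT3G28540 and AT3G49960 averaged under 16 normalized intensity units in both genotypes, and in light OCT1 and BSMT1 did, so that an effect there could hardly be measured.

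Genes that rose in light with a larger or opposite effect there than in darkness included AT5G03350 (3.84), GAT1_2.1 (3.75), OSM34 (3.40), AT1G69730 (3.05), AT3G28540 (2.71), WRKY53 (2.47) and EXPA16 (1.95). The same held for LHCB4.3 (1.90), PMEPCRF (1.83), GSTU20 (1.78), EXPA4 (1.68), WES1 (1.61), CYP71B23 (1.56) and AT2G41090 (1.42). It also held for ATG8B (1.33), AT3G28580 (1.201), CHI (1.07), AT1G26420 (1.04) and AT5G52760 (0.93).

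Genes that rose in light but had a still more positive effect in darkness were AT5G52690 (-0.79), ATERDJ3B (-0.88), WRKY6 (-1.01), AT3G16530 (-1.12), AT2G30670 (-1.13), SAG101 (-1.19) and NDB2 (-1.21). Others of that kind were AT3G61960 (-1.36), AT1G53540 (-1.54), AT3G03670 (-1.57), AT5G24210 (-1.62), AT5G51440 (-1.68), AT4G19730 (-1.68) and AT3G60420 (-1.70). Further genes of this kind were AT3G47540 (-1.90), AT5G17760 (-1.94), AT5G55450 (-2.08), AT3G50400 (-2.14), AT2G21640 (-2.31) and AT5G38910 (-2.38).

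Genes that fell in light, with a more negative effect there than in darkness, were WRKY22 (-0.71), LTI30 (-0.85), XTH16 (-0.97), AT3G01190 (-1.06), AT4G26010 (-1.17), AT1G51830 (-1.18), AT5G17820 (-1.27) and AT1G52070 (-1.56). A more negative effect in light was also seen for AT5G33370 (-1.86), AT4G29030 (-1.87), AT1G52060 (-2.11), AT3G49960 (-2.31), MSRB6 (-2.46), AT4G22490 (-2.59) and AT5G23840 (-2.63).

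Genes that fell in light, and had a still lower effect in darkness, were ATPMEPCRD (3.94), SWEET11 (3.33), EXPA8 (2.07), AT4G39675 (1.81) and TUB5 (1.31).

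Not called in light, but with a more positive fitted effect there, was OCT1 (4.64).

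Not called in light, with a more negative fitted effect there, were BSMT1 (-1.14), UGT74F1 (-2.03) and AT5G16010 (-3.39).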

How the results depend on the processing

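Of 136 named genes called in light, 121 were called under every alternative run, and 15 lost the call under at least 1; of 63 named differences between light and darkness, 29 were called under every alternative run. Among genes without a call, AT5G16010 changed sign with hybridization control scaling (0.0359) and without wild type replicate 2. With single arrays left out, AT5G16010 ranged from -0.1246 to 0.0021, GI from -0.0058 (without wild type replicate 2) to 0.1748, and, both lowest without amiR-SNF4 replicate 3, BSMT1 from -0.0247 to 0.171 and BZIP17 from -0.0856 to 0.4269. The difference of AT5G52690 changed sign with hybridization control scaling (0.0813). Without normalization between arrays 1519 genes were called in light (716 higher, 803 lower) and 278 for the difference (88 more positive in light, 190 more negative). Hybridization control scaling gave 2454 in light, of which 62.4% were higher against 45.1%, shifted the median change by 0.1, and gave 381 for the difference. A pseudocount of 1 gave 637 for the difference. The cause of these changes was not tested. The replicate block gave 2911 genes in light and 902 for the difference; deviations of same-numbered light arrays correlated at -0.0739, -0.00262 and 0.013, so the numbers were not taken as pairs. Without single light arrays, 2620 to 3136 genes were called in light and 737 to 828 for the difference. None of the alternatives turned a gene called in light to a call in the opposite direction. Of 1972 recomputed list counts, 178 moved by more than 1.5 times, 167 of them from counts under 10.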

Other observations

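Some further genes that the naming rule took up are given here as values. In the endoplasmic reticulum, AT1G29310, a Sec61 alpha subunit of the translocation channel, read 524, 414 and 489 in amiR-SNF4 and 236, 205 and 244 in wild type (log2 fold change 1.01 ± 0.12, SE). AT1G26690, a p24 cargo receptor of the early secretory pathway, read 189, 212 and 172 in amiR-SNF4 and 80.2, 75.8 and 72.2 in wild type (1.16 ± 0.11). Both were higher on every amiR-SNF4 array than on any wild-type array. AT3G61960 (ATG1A), a kinase that starts autophagy, read 330.1, 334 and 359 in amiR-SNF4 and 217, 219.97 and 219 in wild type (0.60 ± 0.09).

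At the cell surface, AT1G16260, a wall-associated kinase-like gene, read 267, 258 and 297 in amiR-SNF4 and 95.6, 90.5 and 59.5 in wild type (1.59 ± 0.16). AT3G16530, a legume lectin-like protein, read 884, 953 and 1139 in amiR-SNF4 and 458, 366 and 338 in wild type (1.32 ± 0.15). These 2 were without overlap as well, as were 40.4% of all genes. HTB1, a histone H2B gene, was lower, at 155, 142 and 120.3 in amiR-SNF4 and 245, 246 and 226 in wild type (-0.72 ± 0.12). SPCH, a regulator of the stomatal lineage and the guard cell marker with the smallest p, read 18.0, 23.9 and 22.5 in amiR-SNF4 and 25.3, 83.7 and 56.8 in wild type and was not called (-0.84 ± 0.29, adjusted p = 0.0711), its first wild-type array lying close to the amiR-SNF4 arrays.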
